A study of Rattus norvegicus and Bos taurus with 6 samples.

Results

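White adipocyte nuclei were described in the white rat depots barcoded with the Parse kit, namely the perivascular fat of the mesenteric arteries (mesPVAT) and the retroperitoneal fat pad (RP fat). A nucleus was taken as a white adipocyte nucleus when it held no UMI of Ucp1, at least 2 UMIs summed over 9 adipocyte genes (Plin1, Adipoq, Cidec, Lipe, Acsl1, Pparg, Plin4, Pnpla2 and Dgat2; their sum is called A) and more of these than of 10 vascular, stromal and immune genes (Ptprb, Pecam1, Flt1, Mecom, Pdgfra, Dcn, Fbn1, Ptprc, Mrc1 and Dock2; their sum is called B). A UMI is a molecular identifier by which each captured RNA molecule is counted once. In the library labelled mesPVAT 680 of 3028 nuclei met the rule (22.5%, exact binomial 95% interval 21.0 to 24.0%), and in the library labelled RP fat 174 of 2805 did (6.20%, 5.34 to 7.16%). Together these were 854 of 5833 nuclei of the white Parse libraries and of 19424 nuclei in the series. Because measured UMIs chose the nuclei, the levels of the rule's genes and each difference between these nuclei and others of the same library are given as a description, with no test.

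All rat tissue came from male Dahl salt-sensitive rats (strain SS/HsdMcwiCrl) that carried the label normal, received a normal diet and were housed at 22 °C, with no treatment named, and it was snap-frozen before nuclei were isolated. Each depot and platform gave 1 library, and neither the number of animals behind a library nor their age was given in the sources used here. The comparison libraries were PVAT of the thoracic aorta (taPVAT) and subscapular BAT (brown adipose tissue) with the same Parse batch label, and a 10x Genomics library of mesPVAT with another batch label, nuclei protocol and annotation. The study's methods give a lower centrifugation speed for taPVAT than for rat white fat and name none for BAT. Differences between white fat and taPVAT cannot be told apart from this step. With 1 library per depot no difference between depots has a replicate check, and the intervals below cover counting error only.

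The depot of each white Parse library rests on its label, and the values that bear on the labels were as follows. Over all nuclei Hoxa9, a homeobox gene of the posterior body axis, had 117 UMIs in the library labelled mesPVAT (70.6 CPM, the UMIs of a gene scaled to a total of 1000000; exact Poisson 95% interval 58.4 to 84.6), 6 UMIs in that labelled RP fat (interval 2.60 to 15.4 CPM) and 1 UMI in the 10x Genomics mesPVAT library (0.808 CPM, 0.0205 to 4.50). Hoxc9 was at 15.7, 11.8 and 0.808 CPM in the same order. Other homeobox genes had another order, with Hoxc6 at 19.9, 4.73 and 18.6 CPM, Hoxc8 at 13.3, 3.55 and 15.4, Hoxb4 at 41.0, 10.6 and 64.6 and Hoxa3 at 71.8, 35.5 and 188. The mesothelial gene Msln was at 13.9, 10.6 and 566 CPM, Wt1 at 47.7, 33.1 and 280 and Upk3b at 14.5, 2.37 and 13.7. Col5a3, described below, was at 5469, 574 and 1118 CPM over all nuclei. These genes thus did not place the 10x Genomics mesPVAT library beside the same Parse library throughout, and the RP fat values of the homeobox and mesothelial genes rest on few UMIs. The library labelled mesPVAT held 3028 nuclei with a median of 346 and a maximum of 41374 UMIs, and that labelled RP fat held 2805 nuclei with a median of 213 and a maximum of 5611 UMIs. The study's account of these depots gives the reverse order for the median, the maximum and the number of nuclei. Whether the labels of the pair were exchanged was not tested. The labels were kept, and every difference between mesPVAT and RP fat given here would change direction if they were exchanged.

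White adipocytes store fatty acids as triglyceride in a single large droplet coated by perilipins, and release them by lipolysis under adrenergic control, with insulin acting against it. Brown adipocytes hold many small droplets and mitochondria that dissipate energy as heat through UCP1. Perivascular fat lies against the vessel wall and is known to release factors that act on vascular tone. In nuclei, mostly unspliced and newly made RNA is counted, so that long genes tend to collect more UMIs and levels are compared here between groups of nuclei rather than between genes.

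The adipocyte nuclei were shallow. Those of mesPVAT held 511599 UMIs in all, 30.9% of the UMIs of the library, and those of RP fat held 69766, or 8.25%. The median nucleus held 547.5 UMIs and 432 genes in mesPVAT and 333 UMIs and 305.5 genes in RP fat, against medians of 1834.5 and 2144 UMIs in the adipocyte nuclei of taPVAT and BAT. UMIs per nucleus spanned 152 to 4607 in mesPVAT and 100 to 1934 in RP fat. One UMI of the summed nuclei was therefore worth 1.95 CPM in mesPVAT and 14.3 CPM in RP fat, and a gene with no UMI was given a limit of 3 UMIs. The share of nuclei that met the rule was 21.2% and 23.9% in the 2 Parse sublibraries of mesPVAT, and 4.82% and 9.26% in those of RP fat. No barcode was shared between these libraries.

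For comparison, nuclei with a B of at least 2 and a B above A were taken as vascular, stromal and immune nuclei. In the white libraries they also had to hold no Ucp1 UMI. This was not asked in taPVAT and BAT, where 144 and 118 of them held one. The class numbered 604 in mesPVAT (19.9%) and 279 in RP fat (9.95%). Most nuclei, 1744 in mesPVAT (57.6%) and 2352 in RP fat (83.9%), fell into neither class, and their median depth was lower at 271 and 193 UMIs. The share of nuclei that met the rule depends on depth, so it was also taken at equal depth. Of the nuclei with at least 200 UMIs, thinned to 200 UMIs before the rule was applied, 372 of 2552 met it in mesPVAT (14.6%, 13.2 to 16.0%) and 66 of 1503 in RP fat (4.39%, 3.41 to 5.55%). The share was thus higher in mesPVAT at equal depth as well, with shallower nuclei left out.

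Plin1, the perilipin that guards the droplet against lipases, held the largest share of the A UMIs. A Plin1 UMI was found in 515 of the mesPVAT members (75.7%) and in 119 of the RP fat members (68.4%), and the gene made up 38.3% and 45.7% of their A UMIs. Acsl1, the long-chain acyl-CoA synthetase, was found in 61.8% and 39.1% of members, and Plin4 in 57.5% and 14.9%. Lipe, hormone-sensitive lipase, was found in 40.4% of the mesPVAT members. The shares of members were taken at unequal depth, with medians of 547.5 UMIs in mesPVAT and 333 in RP fat. With chosen members thinned to equal depth, Acsl1 was left in 29.3% (25.8 to 33.0%) in mesPVAT and 26.1% (18.9 to 34.4%) in RP fat. These intervals overlapped. Plin1 was left in 46.9% and 47.8%. Shallower members were left out, and thinned shares of the other A genes are not given. Adipoq, the adiponectin gene, was sparse, with UMIs in 79 and 10 members. If Plin1 were left out of the rule, 556 nuclei of mesPVAT and 95 of RP fat would still meet it. Leaving out any other A gene would keep at least 594 in mesPVAT and 136 in RP fat.

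In CPM over the summed nuclei, Plin1 stood at 3757 in mesPVAT and 3540 in RP fat, against 98.8 and 185 in the vascular, stromal and immune nuclei. Acsl1 was at 1875 and 1448 CPM, Lipe at 796 and 588, and Cidec, a protein of droplet fusion, at 268 and 172. Plin4, a perilipin of small and nascent droplets, was the A gene that differed most, with 2090 CPM in mesPVAT and 430 in RP fat, a 4.86-fold difference (exact conditional 95% interval 3.38 to 7.24). Its share of A UMIs was 21.3% and 5.56%. The reverse order held for Pparg, the master adipogenic transcription factor, and for Pnpla2, the adipose triglyceride lipase, which were 1.88-fold (1.35 to 2.59) and 1.99-fold (1.37 to 2.83) higher in RP fat. All A genes together came to 9807 CPM in mesPVAT and 7740 in RP fat, and to 10724 and 11216 in the brown adipocyte nuclei.

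**Figure D1:**
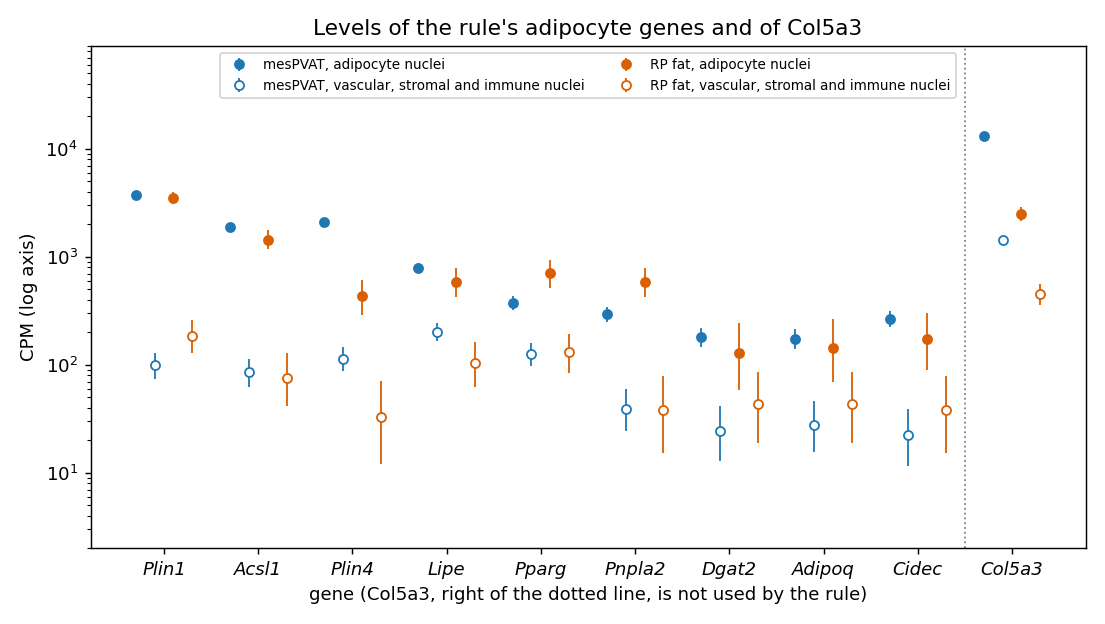
Levels (CPM, log axis) of the 9 adipocyte genes of the rule and of Col5a3 in adipocyte nuclei (filled) and in vascular, stromal and immune nuclei (open) of the libraries labelled mesPVAT and RP fat. Points are sums over nuclei and bars exact Poisson 95% intervals. Each gene was higher in the adipocyte nuclei, which the rule fixed for the 9 genes, and Plin4 and Col5a3 were the genes with the widest gap between the libraries.

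The threshold passed through the bulk of the RP fat members. There 98 of 174 (56.3%) stood at an A of 2, the lowest allowed, against 169 of 680 (24.9%) in mesPVAT, and 18 members of RP fat reached an A of 6 or more against 305 in mesPVAT. Just outside, 238 nuclei of mesPVAT and 321 of RP fat held 1 A UMI and no B UMI, and 25 and 7 met the rest of the rule but held a Ucp1 UMI. Most members drew on several genes, since 615 (90.4%) and 131 (75.3%) had UMIs of 2 or more A genes. No B UMI was found in 401 (59.0%) and 118 (67.8%).

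Col5a3, the gene of the α3 chain of type V collagen, was the only one of the 5 label markers that the rule did not use. It had 6802 UMIs in the mesPVAT members (13296 CPM, 12982 to 13615), or 1.33% of all their UMIs, against 1440 CPM in the vascular, stromal and immune nuclei, a 9.24-fold difference (8.57 to 9.96). In the RP fat members it had 175 UMIs (2508 CPM, 2151 to 2909) against 452 CPM, a 5.55-fold difference (4.25 to 7.30). Col5a3 was thus higher in the adipocyte nuclei of both libraries, although it was named as a marker with earlier results of these data known and is no independent support of the label. Between the libraries Col5a3 was 5.30-fold higher in mesPVAT (4.56 to 6.19), and in the vascular, stromal and immune nuclei it was also higher there, 3.19-fold. It was low in the adipocyte nuclei of both brown depots, at 233 CPM in taPVAT and 224 in BAT, below the 316 and 407 CPM of the vascular, stromal and immune nuclei there. In the 10x Genomics mesPVAT library the adipocyte nuclei held 1756 CPM of Col5a3 and the vascular, stromal and immune nuclei 309.

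The upstream sequences of Col5a3, the only label marker outside the rule, and of Plin1, the A gene with the most UMIs, are given. They are the 250 bases before the annotated start (RefSeq, build GRCr8, both on the minus strand and written 5′ to 3′ in the direction of transcription). Col5a3 lies at chr8:27625949-27626198 and Plin1 at chr1:143086149-143086398. Capitals mark matches on either strand to CCAAT and to the GC box GGGCGG in Col5a3, and to CCAAT and the C/EBP palindrome TTGNNCAA in Plin1.
Col5a3: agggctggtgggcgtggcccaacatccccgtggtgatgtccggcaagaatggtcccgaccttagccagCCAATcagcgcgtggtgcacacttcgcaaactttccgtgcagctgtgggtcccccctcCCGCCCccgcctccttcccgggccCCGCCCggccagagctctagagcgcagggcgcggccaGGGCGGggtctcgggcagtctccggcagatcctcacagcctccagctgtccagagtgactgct
Plin1: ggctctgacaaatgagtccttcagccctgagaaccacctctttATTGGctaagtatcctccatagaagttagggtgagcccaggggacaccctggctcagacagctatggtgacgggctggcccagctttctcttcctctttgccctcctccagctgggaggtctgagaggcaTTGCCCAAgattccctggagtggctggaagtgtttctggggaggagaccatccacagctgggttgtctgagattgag
Over 33469 rat promoter windows of this length, CCAAT was found in 34.0%, GGGCGG in 30.5% and TTGNNCAA in 5.25%, on either strand. These matches are a description of the letters and not of bound sites.

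Among the members Col5a3 varied with A, which counts other genes of the same nuclei. In mesPVAT it was at 6117 CPM (5541 to 6737) where A was 2, at 11600 (10953 to 12277) where A was 3 to 5 and at 15226 (14815 to 15646) where A was 6 or more. In RP fat the same bins held 1584 (1172 to 2094), 2035 (1533 to 2649) and 6015 CPM (4698 to 7587), the last from 18 nuclei. Col5a3 was higher in mesPVAT than in RP fat in every bin. A also chose the members, and the intervals do not cover the spread between nuclei, so the bins carry no test. The nuclei just outside, with 1 A UMI and no B UMI, held 4535 CPM (4069 to 5040) and 853 CPM (659 to 1085).

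**Figure D2:**
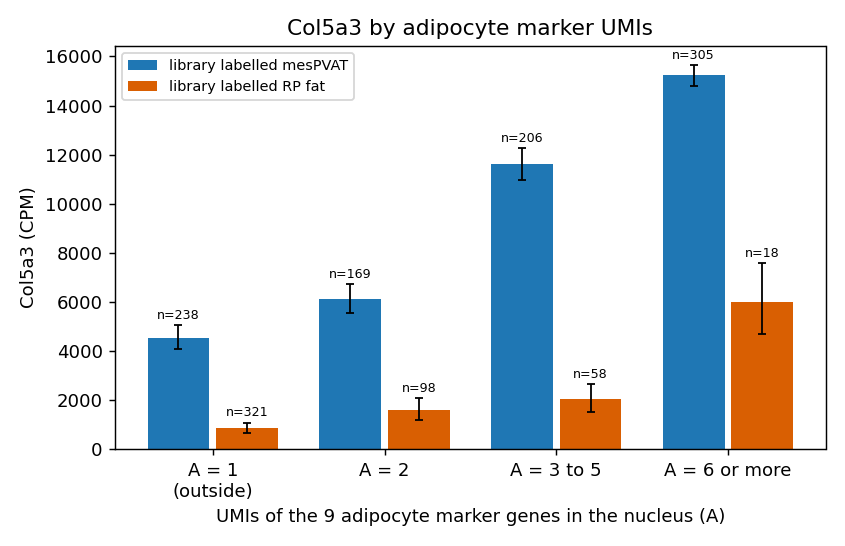
Col5a3 level (CPM) in nuclei grouped by the UMIs of the 9 adipocyte genes they held, for the libraries labelled mesPVAT and RP fat. Bars are sums over nuclei with exact Poisson 95% intervals, and n is the number of nuclei. In mesPVAT the level went from 4535 CPM at 1 UMI, outside the rule, to 15226 at 6 or more, and in RP fat from 853 to 6015.

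Depth varied less closely with Col5a3. Over 4 equal groups of members ordered from fewest to most UMIs, it was at 10228, 12957, 14723 and 13217 CPM in mesPVAT and at 1498, 2979, 2834 and 2374 CPM in RP fat. No Col5a3 UMI was found in 111 mesPVAT members (16.3%) and in 105 RP fat members (60.3%). The highest nucleus held 78 UMIs in mesPVAT and 15 in RP fat. After nuclei were thinned to 200 UMIs, a Col5a3 UMI was left in 76.3% of 642 mesPVAT members (72.8 to 79.6%; 83.7% before thinning) and in 32.1% of 134 RP fat members (24.3 to 40.7%; 39.7% before). The share was thus higher in mesPVAT with the members thinned after they were chosen, while the choice of members was itself made at unequal depth.

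Free RNA can give UMIs to nuclei that do not express a gene, and the thinned shares in the other nuclei measure it jointly with true expression and missed adipocytes. At 200 UMIs Col5a3 was found in 21.4% of the vascular, stromal and immune nuclei of mesPVAT and 10.4% of those of RP fat, and Plin1, which the comparator's rule holds down, in 1.57% and 4.15%. Slc1a3, a glutamate and aspartate transporter outside both rules, was found in 22.6% of mesPVAT members against 1.74%, and in 23.9% of RP fat members against 5.81%. For an unnamed gene, ENSRNOG00000087169, the share was saturated, at 99.7% of mesPVAT members and 97.4% of their comparator, while its level was 97473 against 28447 CPM in mesPVAT (3.43-fold, 3.36 to 3.49) and 2.51-fold higher in the members of RP fat (2.38 to 2.66). The excess of Plin1 in the members was fixed by the rule, while Col5a3 and Slc1a3 were not used by it. The part of free RNA in these shares was not tested.

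Beyond the rule's genes, 623 of 10243 genes were at least 2-fold higher in the adipocyte than in the vascular, stromal and immune nuclei of mesPVAT (6.08%) and 1721 were at least 2-fold lower (16.8%), among genes with 20 or more UMIs over both classes. In RP fat these were 203 (7.18%) and 340 (12%) of 2828 genes. Over genes reaching 20 UMIs in both libraries, 92 of 2826 were higher in both (3.26%) and 99 lower in both (3.5%). The 92 were 60.1% of the 153 genes higher in mesPVAT and 45.3% of the 203 higher in RP fat among these genes. By the near end of the 95% counting interval, 182 genes were at least 2-fold higher in mesPVAT, 22 in RP fat and 19 in both.

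The genes that led in both libraries were of mixed function. Nnat, which encodes neuronatin, an imprinted membrane protein of the endoplasmic reticulum, was at 651 CPM in mesPVAT members against 42.9 (15.2-fold, 9.94 to 24.3) and at 430 CPM in RP fat members against 32.7 (13.2-fold, 5.39 to 38.7). The zinc finger gene Peg3 was 11.3-fold and 7.46-fold higher, and Plagl1 8.30-fold and 6.58-fold, the latter with an interval of 1.90 to 28.7. Thbs1, the matricellular protein thrombospondin 1, was 14.0-fold (8.27 to 25.4) and 8.27-fold (3.41 to 22.9) higher. The leading genes were thus not all of lipid metabolism.

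The other genes named by this rule included several enzymes and transporters. Pck1, the cytosolic carboxykinase that feeds glyceroneogenesis, was at 1744 CPM against 95.1 in mesPVAT (18.3-fold, 13.8 to 24.8) and at 688 against 114 in RP fat (6.02-fold, 3.53 to 10.6). Car3, a carbonic anhydrase abundant in fat, was 8.31-fold and 9.65-fold higher. Abcd2, a peroxisomal transporter of very-long-chain acyl-CoA, was 8.24-fold and 7.37-fold higher, and Csad, an enzyme of taurine synthesis, 7.01-fold and 14.5-fold, the latter from 11 UMIs against 2 (3.16 to 134). Slc1a3 reached 1296 CPM in mesPVAT (15.1-fold, 11.2 to 20.8) and 1677 in RP fat (6.84-fold, 4.81 to 9.88). Tdrp was 9.26-fold (7.54 to 11.5) and 10.2-fold (5.93 to 18.6) higher, Mmd 7.73-fold and 8.77-fold (2.26 to 49.6, with 3 UMIs in the comparator), Ankef1 21.3-fold and 6.70-fold, and Nabp1, a single-stranded DNA binding protein, 19.3-fold and 6.14-fold. The unnamed AABR07053830.1 and ENSRNOG00000085756 were at 23.7-fold and 11.4-fold in mesPVAT and 13.2-fold and 15.1-fold in RP fat.

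**Figure D3:**
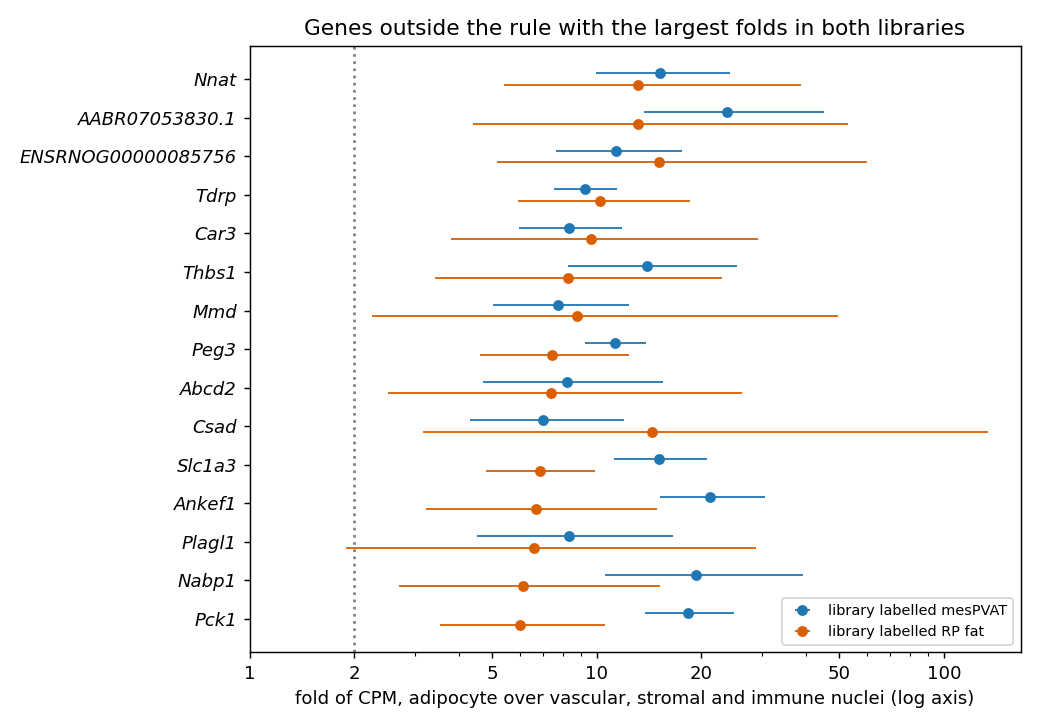
Fold of CPM (log axis) of adipocyte over vascular, stromal and immune nuclei for the 15 genes outside the rule with the largest fold in both libraries. Points are folds and bars exact conditional 95% intervals. All 15 genes lay above 6-fold in both libraries, with wider intervals in RP fat, where that of Plagl1 reached below 2-fold.

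Of the 5 genes named in the other direction, 4 rested on 1 UMI in the RP fat members, and Eln on 6. Eln, the elastin gene of vessel walls, was at 52.8 CPM in mesPVAT members against 338 (6.40-fold lower) and at 86.0 in RP fat members against 354 (4.12-fold lower). Acvrl1, an endothelial receptor of the TGF-β family, was at 25.4 against 103 CPM and at 14.3 against 109. Aqp1, the water channel of endothelium, was at 5.86 against 44.8 CPM and at 14.3 against 70.8, from 3 UMIs and 1 UMI in the members. The others were Tex11 and the unnamed ENSRNOG00000079599, also with 1 UMI in the RP fat members.

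Genes of lipid handling outside the rule were counted by list, beside shares over all genes of 6.08% higher in mesPVAT and 7.18% in RP fat. Of the lipolysis genes, 11 of the 17 tested were at least 2-fold higher in mesPVAT (median log2 1.88, against -0.35 over all genes) and 3 of 9 in RP fat (0.87, against -0.11). Adrb3, the β3-adrenoceptor that starts adipocyte lipolysis, was at 203 CPM in mesPVAT and 115 in RP fat (15.6-fold, and 7.02-fold with an interval of 1.68 to 41.1 from 8 UMIs against 3). Prkar2b, the regulatory subunit of protein kinase A in fat, was at 489 and 244 CPM (8.19-fold and 3.20-fold), and Tshr, the thyrotropin receptor, at 481 CPM in mesPVAT (6.61-fold). In the other direction, 1 lipolysis gene was at least 2-fold lower in mesPVAT and 0 in RP fat. Mgll, monoglyceride lipase, was lower by less than 2-fold, with 760 CPM in mesPVAT members and 923 in the comparator.

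Of the triglyceride synthesis genes, 8 of 10 were higher in mesPVAT (median log2 2.05) and 2 of 3 in RP fat. Besides Pck1 these included Gpd1, which makes glycerol 3-phosphate, at 272 and 172 CPM, and Dgat1, of the last step of synthesis, at 252 and 172 CPM. Of the fatty acid uptake genes 2 of 8 and 1 of 4 were higher, with Lpl, lipoprotein lipase, at 563 and 444 CPM (2.65-fold and 3.40-fold). De novo lipogenesis gave 6 of 13 and 2 of 3. There Srebf1, the transcription factor of that pathway, stood at 190 and 244 CPM, Acacb, an acetyl-CoA carboxylase, at 160 and 143, and Fasn, fatty acid synthase, at 45.0 and 43.0, which is 3 UMIs in RP fat. Triglyceride synthesis was thus the adipocyte list with the highest median in mesPVAT, and lipogenic enzymes were measured by few UMIs.

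Among adipokines and their receptors 11 of 13 genes tested were higher in mesPVAT (median log2 1.46; 6.08% of all genes) and 3 of 4 in RP fat (7.18%). Vegfa, the endothelial growth factor, was at 977 and 473 CPM (5.14-fold and 2.71-fold). Lep, the leptin gene, had 97 UMIs in mesPVAT (190 CPM) and 3 UMIs in RP fat (43.0 CPM), a ratio of 4.41 with an interval of 1.46 to 21.8. Insulin signalling and glucose uptake gave 6 of 17 and 3 of 10 higher genes, and 1 and 0 lower ones. Trarg1, a regulator of GLUT4 trafficking, was at 268 and 201 CPM (4.79-fold, and 36.9-fold with an interval of 5.61 to 1558 from 14 UMIs against 1). Of the adipogenic transcription factors 5 of 17 and 2 of 10 were higher. Ebf1, a transcription factor of adipocytes and their progenitors, differed little between the classes, at 1990 against 1801 CPM in mesPVAT and 1319 against 953 in RP fat.

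In the matrix list, which holds collagen V, basement membrane genes and their receptors, 3 of 18 genes were higher and 2 lower in mesPVAT, and 3 of 15 were higher and 1 lower in RP fat. Over all genes 6.08% were higher and 16.8% lower in mesPVAT, and 7.18% and 12% in RP fat, so that the lower genes of the list were no more frequent than among all genes. The higher ones included Col5a3 and Lama4, the laminin α4 chain of basement membranes, at 1364 and 774 CPM (3.48-fold and 2.22-fold). Col4a1, of basement membrane collagen IV, was at 1355 and 803 CPM, and Col5a2, another chain of type V collagen, at 532 and 244. Lipid droplet proteins outside the rule gave 2 of 4 higher genes in mesPVAT and none with enough UMIs in RP fat.

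Genes of other cell types were found in the members too, at levels that differed by list, where 16.8% of all genes were lower in mesPVAT and 12% in RP fat. Of the endothelial markers outside the rule 11 of 13 were at least 2-fold lower in mesPVAT and 6 of 10 in RP fat, and their sums were 1497 against 3461 CPM and 1032 against 2396 CPM. Stromal progenitor markers were lower for 4 of 10 genes in mesPVAT and 1 of 8 in RP fat and summed to 1515 against 2691 and 1763 against 2799 CPM, with Col3a1, a fibroblast collagen, at 332 against 740 in mesPVAT. Macrophage markers were lower for 0 of 6 and 1 of 3 and summed to 430 against 569 CPM and 659 against 719. Of these lists, the endothelial one was thus the most often lower in the members, and the stromal count in RP fat was close to the share over all genes.

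Among the types that the rule did not name, some sums changed order between the libraries, namely pericyte and smooth muscle markers and lymphocyte markers. Lymphatic endothelial markers were lower in the members of both, at 264 against 459 CPM in mesPVAT and 430 against 566 in RP fat. Pericyte and smooth muscle markers summed to 747 against 1798 CPM in mesPVAT but to 1347 against 1307 in RP fat, with Myh11, smooth muscle myosin, at 260 against 793 and 573 against 479. Lymphocyte markers gave 336 against 595 and 702 against 637 CPM, and mesothelial markers 289 against 798 and 387 against 626, with Msln itself at 2 UMIs and 0 UMIs in the members. Schwann cell markers summed higher in the members, to 1497 against 992 CPM in mesPVAT and 1304 against 1040 in RP fat, although 1 gene was higher and 1 lower of 7 (median log2 -0.38) and 0 and 1 of 5. Their myelin gene Mbp was at 340 against 69.0 CPM in mesPVAT and 71.7 against 76.2 in RP fat. Pancreatic acinar markers came to 16 and 4 UMIs. In RP fat members these markers were thus as high as in the other class for muscle and lymphocytes, and their part in the results below was not tested.

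Between the members of the pair of libraries, 886 of 5896 genes were at least 2-fold higher in mesPVAT (15%) and 794 in RP fat (13.5%), among those with at least 20 UMIs over both. Most of these rested on few molecules of RP fat: 650 of the 886 had 3 UMIs or fewer there, and the median RP fat count was 2 UMIs among the 886 and 8 among the 794. By the near end of the 95% counting interval 30 genes were at least 2-fold higher in mesPVAT and 19 in RP fat. Of these 49 genes, 14 of the 30 and 6 of the 19 were also at least 2-fold apart, in the same direction, in the vascular, stromal and immune nuclei. Over the full lists these were 212 of the 886 (23.9%; 11.7% of all genes tested) and 56 of the 794 (7.05%; 3.58%).

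The genes named by fold alone showed how thin the RP fat counts were. Fer, a tyrosine kinase gene, had 109 UMIs in mesPVAT members and 1 in those of RP fat, a 14.9-fold difference with an interval of 2.61 to 592, and Ncln had 85 against 1 (11.6-fold, 2.03 to 463). The others, L3mbtl2, Hspa12b, Taf1d, ENSRNOG00000085640, Ints13, Kiaa0040, Usp16 and Vps8, lay between 7.91-fold (1.37 to 318, Vps8) and 9.68-fold, from 1 to 3 UMIs in RP fat. Firmer differences, picked here after the values were seen for their narrow intervals, were in genes with many UMIs. Syne2, which encodes the nuclear envelope protein nesprin 2, was at 7406 against 1663 CPM (4.45-fold, 3.70 to 5.41), and Dst, the cytoskeletal linker dystonin, at 6790 against 2007 (3.38-fold), and both were also higher in mesPVAT in the vascular, stromal and immune nuclei, 3.01-fold and 2.94-fold.

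Some further genes, also picked after the values were seen, had a larger fold between the libraries in the adipocyte nuclei than in the other class. Fmr1, which encodes the RNA-binding protein lost in fragile X syndrome, was at 2183 against 416 CPM in the members (5.25-fold, 3.64 to 7.88) and 1.30-fold apart in the other class. Ankef1 was 3.56-fold (2.44 to 5.39) and 1.12-fold apart. Fads3, a fatty acid desaturase family gene, had 62 UMIs in mesPVAT members and none in those of RP fat. That was 2.82-fold higher with the RP fat count set to 3 UMIs, and the interval began at 2.22. In the other class Fads3 was at 33.6 against 65.3 CPM and so higher in RP fat. Hoxa9 was not among these genes. It had 56 UMIs in mesPVAT members and none in those of RP fat (2.55-fold higher with the count set in the same way, interval from 2.00). In the other class it was at 61.5 against 10.9 CPM, the latter from 2 UMIs. Whether the classes differ beyond their counting error was not tested.

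The lists of adipocyte genes are set beside the shares over all genes, 15% higher in mesPVAT and 13.5% in RP fat. Of the lipolysis genes 5 of 15 were at least 2-fold higher in mesPVAT and 0 in RP fat, of the triglyceride synthesis genes 4 of 10 and 0, and of the adipokines 5 of 11 and 0. Lipogenesis gave 4 and 1 of 13, fatty acid uptake 3 and 0 of 7, and lipid droplet proteins outside the rule 0 and 1 of 4. Insulin signalling gave 1 and 0 of 16, adipogenic transcription factors 3 and 0 of 17, and mitochondrial oxidation 1 and 1 of 8. Tshr was 3.73-fold (1.93 to 8.25), Npr3, the natriuretic peptide clearance receptor, 3.48-fold (1.73 to 8.16), Igf1 3.82-fold (1.72 to 10.6) and Pck1 2.53-fold (1.89 to 3.46) higher. Of the thermogenic list 1 of 11 was higher in mesPVAT and 3 in RP fat. These 3 were Slc36a2, an amino acid transporter of brown fat (2.62-fold, 1.49 to 4.43), Ppargc1a, the coactivator of mitochondrial biogenesis (2.23-fold, 1.30 to 3.68), and Prdm16, the brown fat cofactor (2.00-fold, 1.05 to 3.59). Markers of other cell types also differed. Higher in RP fat alone were 2 of 4 lymphocyte, 2 of 3 lymphatic, 2 of 7 pericyte and smooth muscle, 2 of 6 striated muscle and 1 of 4 mesothelial genes. Higher in mesPVAT alone were 3 of 12 endothelial, 1 of 8 stromal and 1 of 5 Schwann cell genes. Macrophage markers gave 0 of 3 each way. The part of these cell types in the depot difference was not tested.

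Of the genes with at least 30 UMIs in RP fat, the one with the largest difference toward that depot was the unnamed ENSRNOG00000088851, with 17903 against 555 CPM in the members (32.3-fold, 28.3 to 36.8) and 27450 against 1098 CPM in the vascular, stromal and immune nuclei. The difference was thus present in both classes of nuclei. The other genes chosen by fold were ENSRNOG00000088887 (3.38-fold), Rgs6, a regulator of G protein signalling (530 against 162 CPM, 3.27-fold), Hs6st3, Ptprn2, Dcc, Pcsk5, a proprotein convertase (516 against 192, 2.69-fold, 1.79 to 3.98), Gse1, Nrg3 and Adamtsl1. Rgs6 was at 414 and 392 CPM in the other class of RP fat and mesPVAT, so that the low value was that of the mesPVAT members. Of the genes picked after the values were seen, Slco5a1, an organic anion transporter family gene, was at 158 against 17.6 CPM (8.96-fold, 3.38 to 24.5; 1.52-fold in the other class), and Epb41l4a at 272 against 50.8 (5.36-fold, 2.80 to 10.1; 0.95-fold).

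**Figure D4:**
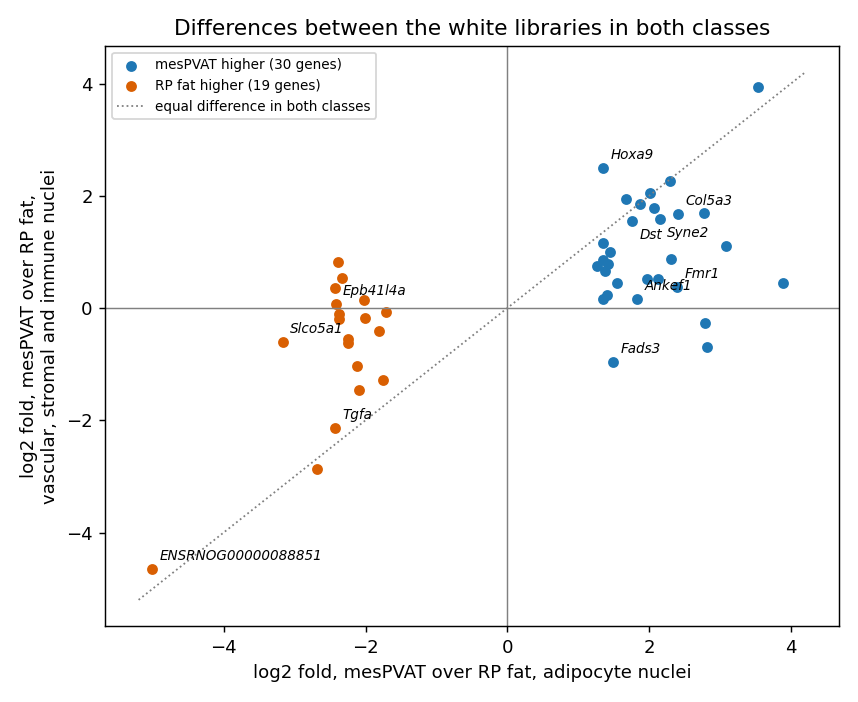
Difference between the libraries (log2 fold, mesPVAT over RP fat) in adipocyte nuclei (horizontal axis) and in vascular, stromal and immune nuclei (vertical axis) for the 49 genes whose 95% counting interval lay beyond 2-fold in the adipocyte nuclei. Genes with no UMI are plotted at the limit of 3 UMIs, and the dotted line marks equal differences. ENSRNOG00000088851 lies near that line, while Fmr1, Slco5a1 and Epb41l4a lie closer to 0 on the vertical axis than to it.

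Against the adipocyte nuclei of the brown depots, 5013 of 17875 genes were at least 2-fold higher in both white libraries than in either brown one (28%), and 758 were higher in both brown libraries (4.24%). The brown nuclei, 1628 of taPVAT and 1873 of BAT, were chosen by A and B alone, with or without Ucp1. With brown nuclei that held no Ucp1 UMI, as asked of the white ones, 1143 genes were higher in white and 407 in brown. This left out 1225 of the taPVAT and 1538 of the BAT nuclei, so fewer UMIs entered under the same minimum. The number of genes tested in this setting is not given, so these counts cannot be set against the others as shares. Of the 5013 genes, 3454 (68.9%) were also higher in the vascular, stromal and immune nuclei of the white libraries, against 26.0% of all genes tested, and of the 758 genes 152 (20.1%) were also higher in those of the brown libraries, against 3.32%. Where at least 20 UMIs were asked of each white library, 110 of 348 genes were higher in white and 18 in brown. Most of the 5013 genes thus had fewer than 20 UMIs in a white library, as did most of the 17875 genes tested. Most of the 5013 were also higher in white in the other nuclei of these tissues. Markers of lymphatic endothelium, lymphocytes and striated muscle were at least 2-fold higher in white than in brown adipocyte nuclei for 6 of 6, 6 of 9 and 4 of 10 genes with enough UMIs (28% of all genes), and 1 striated muscle gene was higher in brown. Endothelial markers gave 0 for white and 1 for brown of 13, and pericyte and smooth muscle markers 0 and 1 of 12. For white alone, stromal and macrophage markers gave 3 of 12 each, Schwann cell markers 3 of 9 and mesothelial markers 2 of 6. The part of these cell types in the difference was not tested.

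The 10 genes that led in white were ranked among the 348 with at least 20 UMIs in each white library. They were not all particular to adipocyte nuclei within their own tissue. Thbs1 was at 391 and 315 CPM in mesPVAT and RP fat and at 8.06 and 13.5 CPM in taPVAT and BAT. Nnat was at 651 and 430 against 29.5 and 27.0 CPM, and Col5a3 followed with the values given above. Ccdc80, a secreted matrix protein of adipocytes, was at 1235 and 674 against 60.7 and 28.5 CPM, and Clmp, an adipocyte adhesion molecule, at 710 and 373 against 38.0 and 43.2. Gabrg3, Erc2, Ctnnd2, Dpp10 and ENSRNOG00000072225 were also among the 10. Of these, Erc2, a presynaptic scaffold gene, was at 240 and 387 CPM in the members but at 349 and 419 in the vascular, stromal and immune nuclei, and Dpp10, a potassium channel subunit, at 385 and 516 against 561 and 719. Thbs1 and Nnat thus set the white adipocyte nuclei apart from both the brown ones and their own neighbours, whereas Erc2 and Dpp10 were as high in the neighbours.

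The 10 genes that led in brown, ranked among 12000, had few UMIs in the white members. Pank1, of coenzyme A synthesis, was at 479 and 508 CPM in taPVAT and BAT and at 9.77 and 14.3 in mesPVAT and RP fat. Pdk4, which holds back pyruvate oxidation, was at 1331 and 1648 against 76.2 and 43.0 CPM, and Gk, glycerol kinase, at 820 and 676 against 41.1 and 43.0. Cidea, a droplet protein of brown fat, was at 1025 and 1329 CPM against 60.6 in mesPVAT and no UMI in RP fat. Gnas, which encodes the stimulatory G protein α subunit, held the most UMIs of them, at 3773 and 3851 against 184 and 258 CPM. Mt-co3, a mitochondrial gene that can enter nuclei preparations from the cytoplasm, was at 293 and 254 against 7.82 and 14.3 CPM. Tfrc, the transferrin receptor, Coro6, Calr3 and Mybpc2 were the others.

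**Figure D5:**
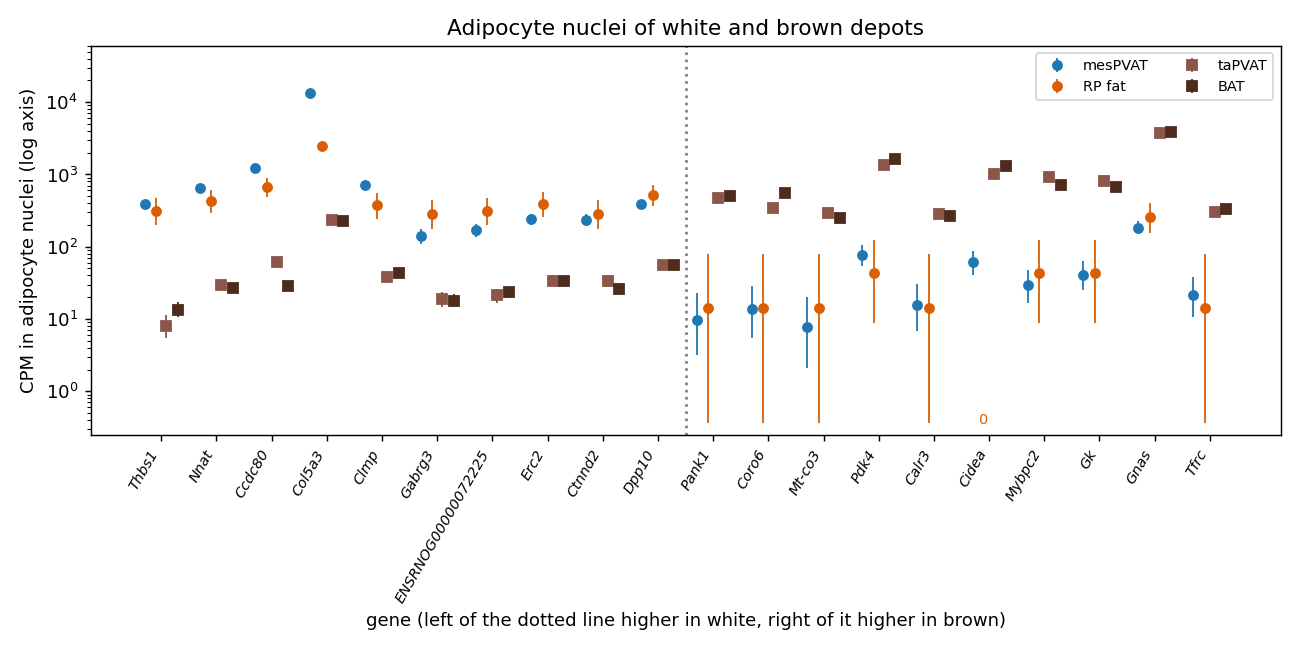
Levels (CPM, log axis) in adipocyte nuclei of mesPVAT, RP fat, taPVAT and BAT of the 10 genes that led in white (left of the dotted line) and the 10 that led in brown (right). The white genes were ranked among the 348 with at least 20 UMIs in each white library, and the brown ones among 12000. Points are sums over nuclei with exact Poisson 95% intervals, and 0 marks Cidea, with no UMI in RP fat. The white and brown levels of each gene did not overlap, which the choice of genes fixed.

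By list, 14 of 18 thermogenic genes and 14 of 15 genes of mitochondrial oxidation were at least 2-fold higher in both brown libraries, and none was higher in white. The list counts are for brown nuclei with or without a Ucp1 UMI, while the white ones were chosen to hold none. Ppargc1b, a coactivator of mitochondrial genes, was at 250 and 115 CPM in white and 2220 and 2751 in brown, and Prdm16 at 108 and 215 against 915 and 1012. De novo lipogenesis leaned to brown as well, with 13 of 17 genes, of which Acacb was at 1503 and 1596 CPM and Fasn at 833 and 458. Triglyceride synthesis gave 5 of 10 for brown and none for white, lipolysis 4 and 1 of 17, and insulin signalling 7 and 4 of 19. The adipokine list gave 4 for brown and 2 for white of 18, although Lep was at 37.5 and 29.7 CPM in brown and at 190 and 43.0 in white. Pck1, among the leading genes of the white members over their neighbours, was higher still in brown, at 2512 and 3263 CPM. Thermogenic, mitochondrial and lipogenic genes were thus the lists with most of their genes higher in brown, against 4.24% of all genes. Matrix genes gave 2 of 18 for white and 0 for brown, below the 28% of all genes that were higher in white.

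The adipocyte nuclei of the 10x Genomics mesPVAT library, chosen by the same rule, numbered 2276 of 5887 and held 573473 UMIs, 46.3% of that library. Their levels are given beside those of Parse without a comparison, since platform, nuclei protocol and annotation all differ. Nnat was at 1751 CPM, Car3 at 1538, Pck1 at 4028 and Lep at 448, while Tdrp was at 167 CPM, Rgs6 at 13.9, Gabrg3 at 5.23 and Erc2 at 8.72. Nnat, Car3, Pck1 and Lep were thus measured with many UMIs there, and Rgs6, Gabrg3 and Erc2 with few.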

How the data were processed

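Nuclei of snap-frozen rat fat were barcoded with the Parse kit or the 10x Genomics kit. The authors aligned the Parse reads with split-pipe to GRCr8 and the 10x Genomics reads to Rnor_6.0 with Cell Ranger, and deposited the UMI counts of each gene in each called nucleus, unfiltered after cell calling as far as the sources used here state and without normalization. FastQC and Scanpy are named in the submitters' processing notes. Whether strand was used in counting is not given in the sources used here, so reads of antisense and overlapping genes, and of near-identical copies, may be shared.

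All deposited nuclei of 5 rat libraries were used, with groups taken from the labels, and the cow library was not used. UMIs were summed over the nuclei of a class in a library and scaled to CPM, with the totals of the summed nuclei as library sizes (69766 UMIs in RP fat members, 511599 in those of mesPVAT). Genes were matched to the 10x Genomics library by identifier. Genes entered a comparison with at least 20 UMIs over the groups compared and were counted at a fold of 2 or more, against both libraries of the other kind for white and brown. No test was made, since each depot had 1 library. Sums have exact Poisson, shares exact binomial and folds exact conditional binomial intervals, at 95%. A count of 0 was set to 3 UMIs in a fold, which is a convention and can exceed the lower end of the interval. Thinning to 200 UMIs was without replacement with the seed 20. Doublets were not called and no upper limit on UMIs was set.

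The members, gene lists and comparisons were chosen with earlier results of these data known. The text names the rule's genes, the 15 genes with the largest smaller fold of the pair of libraries over the vascular, stromal and immune nuclei and the 5 in the other direction (at least 10 UMIs in each library), the 10 with the largest fold each way between the depots (at least 30 UMIs in the higher one) and between white and brown, and 2 to 4 genes of each list with the highest CPM. Between white and brown, the 10 white genes were ranked among the 348 with at least 20 UMIs in each white library, and the 10 brown genes among 12000. Genes outside this rule are said to be chosen after their values were seen, except the homeobox and mesothelial genes set beside the labels. One item that the rule names is not reported here. The counting of genes was tested on simulated data. Alternatives were the A threshold, depth-matched nuclei, each sublibrary alone, other comparators, other count minimums, brown nuclei without Ucp1 and, added after the data were seen, the near end of the counting interval and 20 UMIs in each white library. The software was pandas 2.3.3, matplotlib 3.10.9, scipy 1.17.1 and numpy 2.4.6 in Python 3.11.15.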

Additional observations from a re-analysis of the deposited data

Results flagged for a closer look

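In all, 7 genes were at least 2-fold apart between adipocyte and vascular, stromal and immune nuclei in both libraries but in opposite directions, which was 0.248% of the 2826 genes with enough UMIs in both. The difference between the libraries was not tested, and the RP fat members held 3 to 19 UMIs of each gene. Slco5a1 was 2.23-fold higher in the adipocyte nuclei of RP fat (0.377-fold in mesPVAT), Epb41l4a 2.00-fold (0.354-fold), Gpd2, the mitochondrial glycerol phosphate dehydrogenase, 2.15-fold (0.449-fold), Wdr72 2.07-fold (0.388-fold), Fut9, a fucosyltransferase, 3.22-fold (0.441-fold) and ENSRNOG00000086974 2.15-fold (0.495-fold). ENSRNOG00000071974 went the other way, at 0.376-fold in RP fat and 2.01-fold in mesPVAT.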

How the results depend on the processing

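No paired analysis was possible because each depot had 1 library. Of 102 counts recomputed, 68 stayed within 1.5 times the reported count and 34 did not, and 1025 of 1166 gene levels stayed inside their reported Poisson interval. Of the 141 levels outside, 58 came with thinning to equal depth, where only 48 stayed inside. Another 27 came with an A of at least 3, where 79 stayed inside. Members numbered 372 in mesPVAT and 66 in RP fat after thinning, 346 and 93 in the first sublibrary alone and 334 and 81 in the second, and 76 in RP fat at an A of at least 3. Genes higher than in the vascular, stromal and immune nuclei numbered 980 in mesPVAT and 642 in RP fat with a minimum of 10 UMIs, 333 and 44 with 50, and 182 and 22 by the near end of the interval. In RP fat they also numbered 85 and 90 in the first and second sublibrary and 835 against all other nuclei. Genes higher in mesPVAT than in RP fat numbered 486 in the first sublibrary, 388 with a minimum of 50 UMIs, 197 with the pools thinned to equal totals and 30 by the near end. Genes higher in RP fat numbered 284 and 336 in the first and second sublibrary, 1955 with 10 UMIs, 156 with 50, 146 with thinned pools and 19 by the near end. Genes higher in white than brown numbered 2650 and 2648 in the sublibraries, 2483 with 50 UMIs, 1143 against brown nuclei without a Ucp1 UMI and 110 with 20 UMIs in each white library. Genes higher in brown numbered 471 in the first sublibrary, 407 for brown nuclei without Ucp1 and 18 with 20 UMIs in each white library. The cause of these changes was not tested. Several alternatives leave fewer nuclei or genes, while a minimum of 10 UMIs admits more genes and the comparator of all other nuclei holds more nuclei. Shares of the genes tested are not given for these settings, and a lower count need not be a lower share. The 110 genes higher in white, for example, were among 348 genes, and the 5013 reported were among 17875. The depth of RP fat, where 1 UMI is 14.3 CPM, limits each count that includes it.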

Other observations

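Of the monoamine and vasoactive list, 1 of 12 genes was at least 2-fold higher and 4 lower than in the vascular, stromal and immune nuclei of mesPVAT (6.08% and 16.8% of all genes), and 1 of 3 was higher and 1 lower in RP fat (7.18% and 12%). The list summed to 1143 against 1639 CPM in mesPVAT and 1491 against 1508 in RP fat. Agt, which encodes angiotensinogen, was at 56.7 CPM in mesPVAT and 71.7 CPM in RP fat members. Adra1a, the α1A-adrenoceptor, was at 93.8 and 158 CPM in white and at 1467 and 1512 CPM in brown adipocyte nuclei. Of the steroid receptor and glucocorticoid response list 1 of 11 genes was higher and 1 lower in mesPVAT, and 0 and 1 of 7 in RP fat, while between white and brown 2 of 16 were higher in white (28% of all genes) and 3 in brown (4.24%). Of the positional genes, which mark body axis and depot, 0 of 11 were higher and 2 lower than in the comparator of mesPVAT, and 1 of 4 was higher in RP fat.

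Over RefSeq gene models of GRCr8, the 110 genes higher in white with 20 UMIs in each white library had a median length of 800.0 kb (100 matched), against 393.8 kb over the 348 genes with that many UMIs (325 matched), 73 of the 110 (66.4%) being higher in white in the vascular, stromal and immune nuclei too. The part of gene length in the white and brown difference was not tested. For all 5013 genes the check is void, since 48.1% of them matched a gene model. Between the white libraries, the genes higher in mesPVAT members had a median length of 46.3 kb (94.7% matched) against 75.9 kb over the genes tested (87.0% matched), and the check is void for those higher in RP fat, of which 71.2% matched.

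The unnamed ENSRNOG00000087169 held 9.75% of the UMIs of the mesPVAT members and 3.56% of those of RP fat. In the adipocyte nuclei of taPVAT and of BAT it held more, 13.5% in each.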
